A study of Mus musculus with 9 samples.

Results

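A set of 10 genes of the alveolar type 1 (AT1) cell and of caveolae were followed in mouse embryonic lung: Ager, Hopx, Aqp5, Pdpn, Rtkn2, Akap5, Clic5, Emp2, Cav1 and Cav2. They were chosen by symbol, and all 10 were found among the 55286 genes of the tables. RNA-seq libraries were made from wild-type lungs in 3 groups of 3: lung at E11.5 (fresh lung), and explants from the same age after 72 h in culture, without inhibitor (controls) or with EPZ5676. The compound EPZ5676 (pinometostat) inhibits DOT1L, a histone H3 methyltransferase that acts on lysine 79, and the series asks how its use affects branching of the embryonic lung. Its dose, the solvent given to the controls, the mouse strain and the sex of the embryos are not given in the sources used here, nor is it stated whether a library came from one lung or from several, or from separate cultures. Spread between libraries may thus be technical in part, and p-values measure that spread alone. Levels of Xist and Ddx3y, which bear on sex and on pooling, are given below.

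AT1 cells are the very thin cells that cover most of the gas-exchange surface of the mature lung, and they arise from the distal epithelium, which also gives the surfactant-making type 2 (AT2) cells. Caveolae are flask-shaped pits of the plasma membrane, abundant in AT1 and endothelial cells, and caveolins are the proteins that form their coat together with the cavins. E11.5 is a stage of early airway branching, before alveoli exist, so transcripts of AT1 genes at this age are those of progenitors and of other cells that use the same genes. Several of the 10 genes are not restricted to epithelium: caveolins are also made by endothelial, smooth muscle and mesenchymal cells, and Pdpn by mesothelium and lymphatic vessels. The libraries were of whole tissue, in which more cells of a type and more RNA per cell cannot be told apart.

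The libraries held 6509563 to 9861452 counts. The lung transcription factor Nkx2-1 was present in every library, at 30.1 to 38.7 TPM (a level scaled by transcript length and library depth) in fresh lung and 71.7 to 96.6 TPM in explants. One control library stood apart in transcripts of neighbouring organs: 8 liver markers summed to 227 TPM in Control 1 against 1.92 and 2.35 TPM in the other controls, and 8 heart muscle markers to 199 TPM against 45.8 and 62.3 TPM. Xist, the transcript of the inactive X chromosome, was high (210 to 281 TPM) in Control 1, Control 2 and EPZ5676 2 and under 1 TPM in the other cultured libraries. Ddx3y, a gene of the Y chromosome, was at 0 to 0.44 TPM in the former and 45.35 to 55.72 TPM in the latter. In fresh lung, E11.5 1 held Xist at 284.27 TPM and Ddx3y at 0 TPM. E11.5 2 and E11.5 3 held both, as RNA from embryos of both sexes would. Their Xist was at 143.48 and 72.47 TPM and their Ddx3y at 20.02 and 30.21 TPM.

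Of the 10 genes, 9 had enough counts to be tested, among 15158 genes in all; Aqp5 did not. Hopx and Clic5 passed that filter through the cultured libraries, since their fresh libraries held 9, 10 and 9 counts and 4, 7 and 8 counts. The tested genes are therefore not all 10, and a rise of these 2 genes over culture is partly a condition of their having been tested. In control explants 6 of the 9 were higher than in fresh lung (edgeR quasi-likelihood test, adjusted p under 0.05), against 21.1% of all genes tested called higher, and none was lower, against 16.6% called lower. The same 6 genes, Ager, Hopx, Clic5, Emp2, Cav1 and Cav2, were higher in EPZ5676 explants than in fresh lung, where 22.1% of all genes tested were called higher and 17.9% lower. Both of these comparisons use the same 3 fresh libraries. Between EPZ5676 and control explants none of the 9 passed, and neither did any other gene (0.00% of 15158). That count of all genes rested on single libraries: without EPZ5676 2, 26 genes were called higher, without Control 2, 1 higher and without EPZ5676 3, 1 lower, with none of the 9 called in any of these. At an unadjusted p under 0.05, 3 of the 9, Emp2, Cav1 and Cav2, were above control, against 4.14% of all genes tested, and whatever the p all 9 were above it, against 49.2%. The AT2 and pan-epithelial marker lists also lay mostly above control, with 7 of 8 tested markers above in each (given below). DESeq2, run on the same counts, called 91 of 17387 genes higher and 16 lower in that comparison. Among the 91 was 1 of the 10 genes, Cav2.

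**Figure D1:**
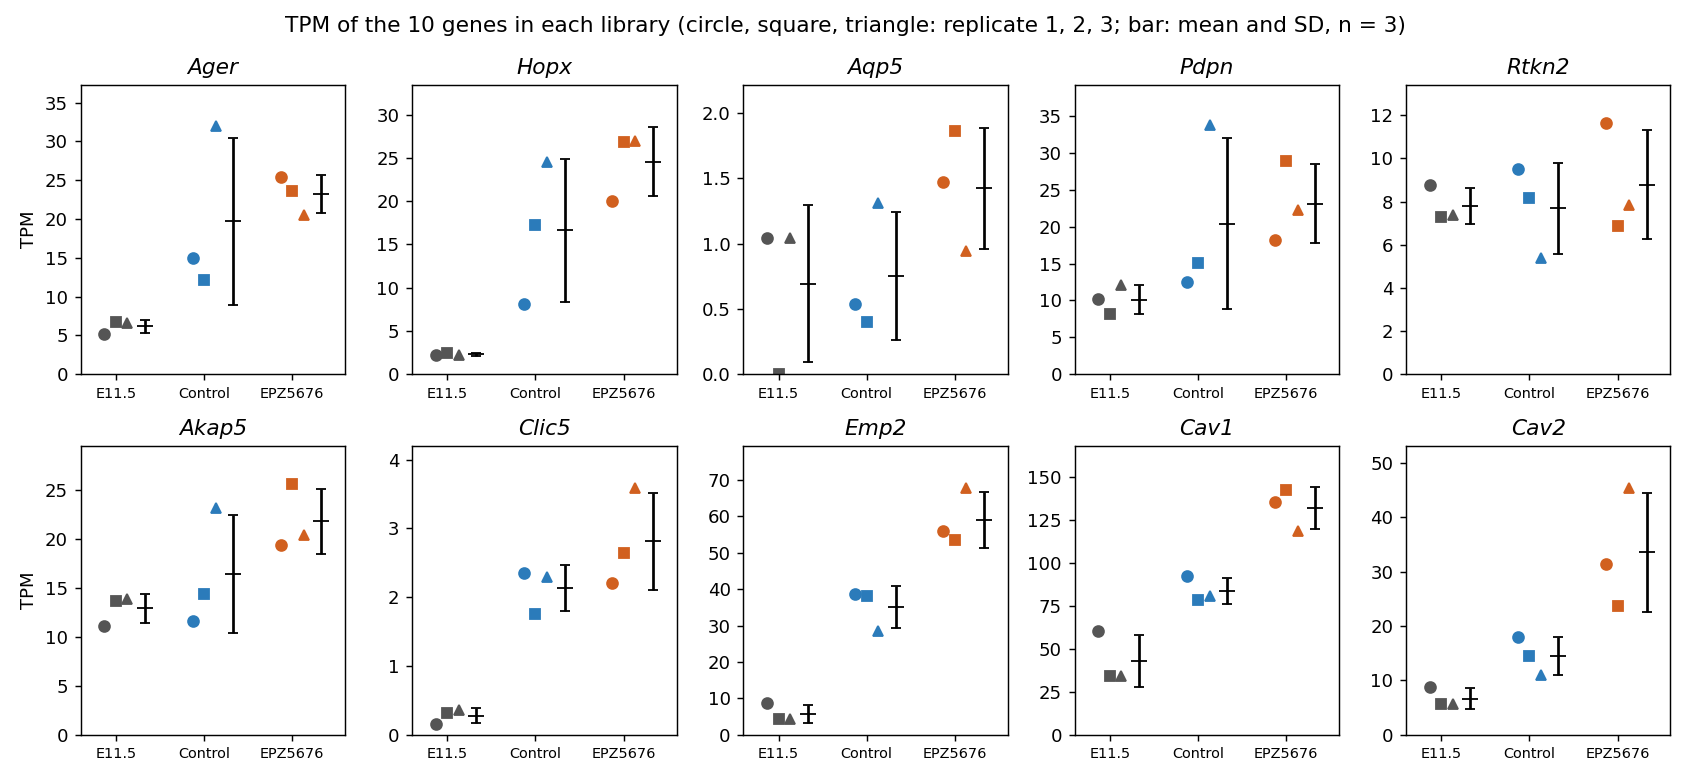
Level in TPM (vertical axis, starting at 0 and scaled per gene) of each of the 10 genes in the E11.5, Control and EPZ5676 groups; each symbol is 1 library and the bar is mean and SD over 3 libraries. For Emp2, Cav1 and Cav2 the 3 groups form separate steps, while for Ager, Hopx, Pdpn and Akap5 the control libraries are spread widely, with Control 3 highest.

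Cav1, the main structural protein of caveolae, had the highest level of the 10 genes in all 3 groups, clear of the next gene in each. It was at 60.4, 34.0 and 34.4 TPM in the fresh libraries, 92.2, 78.2 and 80.6 TPM in controls and 136, 142 and 119 TPM with EPZ5676. No library of a group reached into the next group. From fresh lung to control explants Cav1 rose by a log2 fold change of 1.06 ± 0.22 (SE; 2.09-fold, edgeR adjusted p = 0.00426), and to EPZ5676 explants by 1.65 ± 0.22 (3.14-fold, adjusted p = 0.000336). The difference between EPZ5676 and control was 0.59 ± 0.21 (95% interval 0.12 to 1.06, 1.51-fold), which did not pass (edgeR adjusted p = 0.583).

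Cav2, which assembles with Cav1 and depends on it to reach the cell surface, was lower in level than Cav1 in every library. It was at 8.84, 5.61 and 5.60 TPM in fresh lung, 18.0, 14.5 and 10.9 TPM in controls and 31.5, 23.7 and 45.5 TPM with EPZ5676. Again the groups did not overlap, and EPZ5676 3 was the highest library. The rise was 1.23 ± 0.26 (2.35-fold, edgeR adjusted p = 0.00458) in controls and 2.43 ± 0.26 (5.40-fold, adjusted p = 7.5e-05) with EPZ5676. Of the 9 tested genes Cav2 had the largest difference between EPZ5676 and control, 1.20 ± 0.24 (95% interval 0.67 to 1.73, 2.30-fold), 36th of 15158 genes by p. It did not pass the edgeR test (adjusted p = 0.197) but passed DESeq2 (log2 fold change 1.20, adjusted p = 0.0025), and over the alternatives run its adjusted p ranged from 0.0025 to 0.498. Without EPZ5676 3 the difference was 0.86, and without EPZ5676 2 it was 1.36. The ratio of Cav1 to Cav2 in TPM was 6.83, 6.06 and 6.15 in fresh lung, 5.13, 5.41 and 7.38 in controls and 4.30, 5.997 and 2.61 with EPZ5676, so the groups overlapped in it.

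Cav2 and Cav1 are neighbours on the forward strand of chromosome 6 in GRCm38 (GENCODE M21), Cav2 at chr6:17281185-17289115 and Cav1 at chr6:17306335-17341452, with 17219 bases and no other annotated gene between them. Emp2 lies on the reverse strand of chromosome 16, at chr16:10281749-10313968. The 250 bases before the start of these 3 genes, which were the 3 whose EPZ5676 libraries all lay above all controls, are shown as RefSeq gives them on GRCm38.p6; capitals mark the GC box (GGGCGG), the NKX2-1 motif (CAAGTG) and the TATA motif (TATAAA), searched on both strands.
Cav2, chr6:17280935-17281184, forward strand: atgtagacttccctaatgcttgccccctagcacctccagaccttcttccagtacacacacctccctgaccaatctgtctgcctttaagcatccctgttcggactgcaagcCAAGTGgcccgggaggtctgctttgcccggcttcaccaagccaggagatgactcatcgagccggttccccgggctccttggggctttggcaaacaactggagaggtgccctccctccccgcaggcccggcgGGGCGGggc
Cav1, chr6:17306085-17306334, forward strand: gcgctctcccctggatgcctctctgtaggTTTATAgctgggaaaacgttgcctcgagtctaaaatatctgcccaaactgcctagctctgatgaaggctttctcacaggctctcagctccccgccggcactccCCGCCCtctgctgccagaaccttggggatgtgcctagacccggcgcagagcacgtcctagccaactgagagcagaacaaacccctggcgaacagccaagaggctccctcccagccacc
Emp2, chr16:10313969-10314218, reverse strand: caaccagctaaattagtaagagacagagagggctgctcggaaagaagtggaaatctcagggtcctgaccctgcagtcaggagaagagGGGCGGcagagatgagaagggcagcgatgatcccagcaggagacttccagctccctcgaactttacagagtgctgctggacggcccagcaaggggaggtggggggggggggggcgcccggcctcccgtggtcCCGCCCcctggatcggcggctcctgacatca
Cav1 has a second entry further downstream (chr6:17307390-17307639), not shown, which held none of these motifs. The Cav2 window held 1 GC box and 1 NKX2-1 motif, the Cav1 window shown 1 GC box and 1 TATA motif, and the Emp2 window 2 GC boxes. Among all 32851 promoter windows of this length in the table, 32.7% held a GC box, 11.6% the NKX2-1 motif and 12.4% the TATA motif. The TEAD motif (GGAATG, bound by the partners of YAP and TAZ), held by 12.6% of all windows, was in none of the 11 windows of the 9 members that had an entry. These matches describe letters in a window and are not evidence of binding.

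Emp2, a tetraspan membrane protein abundant in AT1 cells, stood at separate levels in the 3 groups. It was at 8.63, 4.25 and 4.41 TPM in fresh lung, 38.6, 38.0 and 28.6 TPM in controls and 55.9, 53.4 and 67.6 TPM with EPZ5676. All 6 cultured libraries lay more than 3-fold above the highest fresh one, and the lowest EPZ5676 library lay above the highest control. The rise was 2.64 ± 0.23 (6.23-fold, edgeR adjusted p = 4.1e-05) in controls and 3.37 ± 0.23 (10.3-fold, adjusted p = 9e-06) with EPZ5676. Its difference between EPZ5676 and control was 0.73 ± 0.20 (95% interval 0.28 to 1.18, 1.66-fold), short of the threshold (edgeR adjusted p = 0.418; DESeq2 adjusted p = 0.0749). Emp2, Cav1 and Cav2 made 3 of 9 tested genes whose EPZ5676 and control libraries did not overlap in log2 CPM (counts scaled to library size), all 3 higher, against 5.79% of all genes tested.

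**Figure D2:**
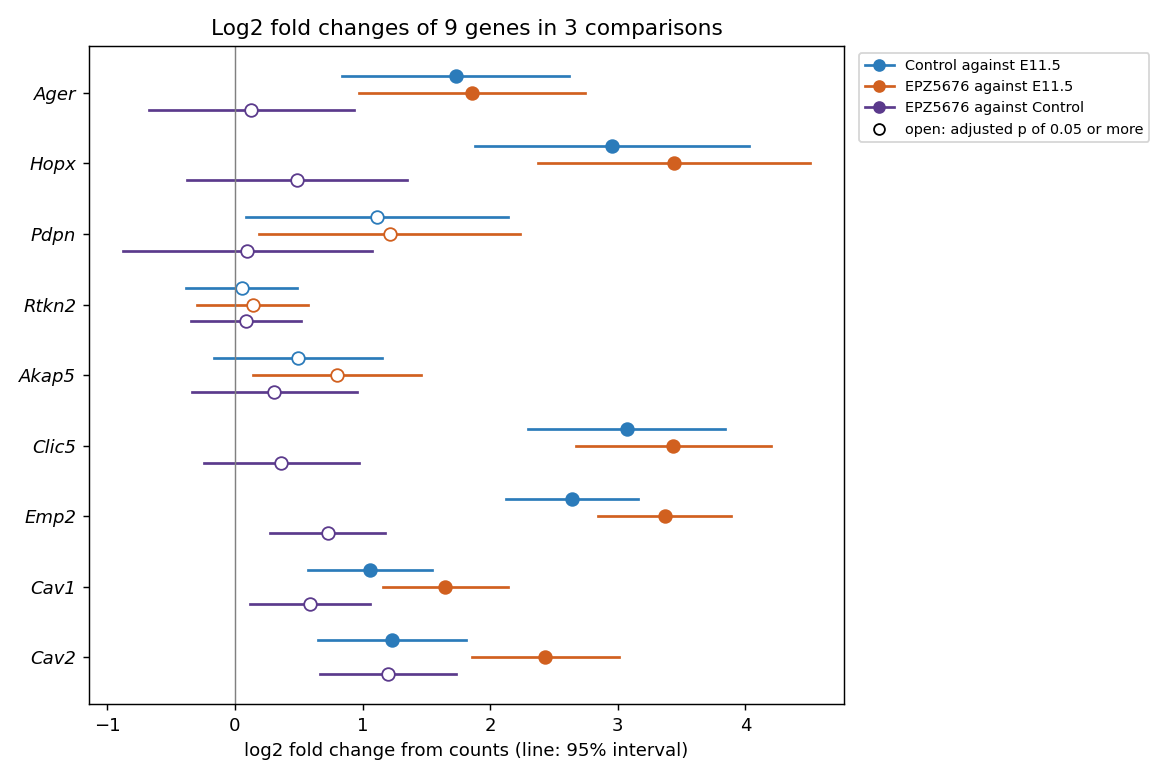
Log2 fold change from counts (horizontal axis) with its 95% interval for the 9 tested genes in the 3 comparisons, which share libraries; filled symbols have an adjusted p under 0.05. The EPZ5676 against Control intervals of Emp2, Cav1 and Cav2 lie above 0 although no adjusted p passes, and those of the other 6 genes span 0.

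Clic5, a chloride intracellular channel protein that links membrane to cortical actin, was close to absent before culture. Its level was 0.16, 0.32 and 0.36 TPM in fresh lung, 2.35, 1.75 and 2.30 TPM in controls and 2.21, 2.64 and 3.58 TPM with EPZ5676. Every cultured library was above every fresh one, and the cultured groups overlapped. The rise was 3.07 ± 0.35 (8.40-fold, edgeR adjusted p = 0.000116) in controls and 3.44 ± 0.35 (10.8-fold, adjusted p = 4.4e-05) with EPZ5676, on counts of 4 to 8 in fresh libraries and 43 to 95 in cultured ones. With EPZ5676 it differed from control by 0.36 ± 0.28 (edgeR adjusted p = 0.865).

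Hopx, a small homeodomain protein without DNA-binding activity that marks AT1 cells and their progenitors, rose about as far as Clic5. It was at 2.18, 2.47 and 2.19 TPM in fresh lung, 8.11, 17.2 and 24.6 TPM in controls and 20, 26.8 and 26.9 TPM with EPZ5676. The cultured libraries all lay above fresh lung, but Control 1 and Control 3 differed 3.03-fold from each other. The rise was 2.95 ± 0.48 (7.74-fold, edgeR adjusted p = 0.00113) in controls and 3.44 ± 0.48 (10.9-fold, adjusted p = 0.000363) with EPZ5676. The difference between EPZ5676 and control, 0.49 ± 0.39 (95% interval -0.37 to 1.35, edgeR adjusted p = 0.867), moved to 0.09 without Control 1 and to 1.02 without Control 3.

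Ager, which codes for the receptor for advanced glycation end products and is among the most AT1-restricted genes of the adult lung, was already present at 5.21, 6.72 and 6.53 TPM in fresh lung. It was at 14.96, 12.15 and 31.96 TPM in controls and 25.4, 23.6 and 20.6 TPM with EPZ5676. The highest library of all 9 was thus Control 3, and the 3 EPZ5676 libraries lay between it and the other controls. The rise over fresh lung was 1.73 ± 0.40 (3.32-fold, edgeR adjusted p = 0.00747) in controls, or 1.06 without Control 3, where it still passed, and 1.86 ± 0.40 (3.63-fold, adjusted p = 0.0046) with EPZ5676. The difference between EPZ5676 and control was 0.13 ± 0.36 (edgeR adjusted p = 0.963), and its sign turned when Control 1 (-0.12) or Control 2 (-0.14) was left out; without Control 3 it was 0.81.

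Pdpn, the mucin-like surface glycoprotein podoplanin, and Akap5, a scaffold that anchors protein kinase A at the membrane, had the same order of controls. Pdpn was at 10.1, 8.10 and 12.1 TPM in fresh lung, 12.4, 15.1 and 33.8 TPM in controls and 18.3, 28.9 and 22.2 TPM with EPZ5676. Akap5 was at 11.2, 13.7 and 13.9 TPM in fresh lung, 11.6, 14.4 and 23.2 TPM in controls and 19.4, 25.6 and 20.4 TPM with EPZ5676. For both genes the EPZ5676 libraries lay above fresh lung and Control 3 lay among the EPZ5676 libraries or above them. Against fresh lung the log2 difference of Pdpn was 1.11 ± 0.45 in controls (edgeR adjusted p = 0.0837) and 1.21 ± 0.45 with EPZ5676 (adjusted p = 0.0599). That of Akap5 was 0.49 ± 0.29 (edgeR adjusted p = 0.217) and 0.80 ± 0.29 (adjusted p = 0.0541). These values sit near the threshold. With EPZ5676, Pdpn passed in 7 and Akap5 in 9 of 20 alternatives, among them DESeq2 (adjusted p = 0.0133 and 0.0151), and in controls both passed without Control 1 (adjusted p = 0.0249 and 0.0215), while without Control 3 their differences fell to 0.40 and 0.08. The differences between EPZ5676 and control were 0.10 ± 0.43 for Pdpn and 0.31 ± 0.29 for Akap5 (edgeR adjusted p = 0.977 and 0.892). The sign for Pdpn turned without Control 1 (-0.23), Control 2 (-0.10) or EPZ5676 2 (-0.14), that of Akap5 was 0.04 without Control 1, and without Control 3 the values were 0.82 and 0.72.

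Rtkn2 and the water channel Aqp5 showed no change that the test or the counts could resolve. Rtkn2 was at 8.76, 7.28 and 7.38 TPM in fresh lung, 9.53, 8.15 and 5.40 TPM in controls and 11.7, 6.87 and 7.83 TPM with EPZ5676, with all groups overlapping. Its log2 fold changes were 0.05 ± 0.20 for control against fresh lung (95% interval -0.38 to 0.49, edgeR adjusted p = 0.856), 0.14 ± 0.20 for EPZ5676 against fresh lung (adjusted p = 0.609) and 0.09 ± 0.20 for EPZ5676 against control (adjusted p = 0.956), and single libraries turned the sign of each. Aqp5, a defining product of mature AT1 cells, was at 1.04, 0 and 1.04 TPM in fresh lung, 0.54, 0.40 and 1.31 TPM in controls and 1.47, 1.86 and 0.94 TPM with EPZ5676. These levels rest on 9, 15 and 22 counts summed over the 3 libraries of each group, and the groups overlapped. The count of 0 in E11.5 2 allows up to 0.453 CPM (3 counts in 6627341), so a low level there was not detectable at this depth.

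The order of levels in TPM changed with culture. In fresh lung Cav1 (mean 42.9 ± 15.1 TPM, SD, n = 3) was followed by Akap5 (12.9 ± 1.5), Pdpn (10.1 ± 2.0), Rtkn2 (7.81 ± 0.83), Cav2 (6.68 ± 1.87), Ager (6.15 ± 0.82) and Emp2 (5.76 ± 2.48), and from Akap5 to Emp2 no neighbours were separated by their ranges. Hopx (2.28 ± 0.16) was clear of Emp2 and of Clic5 and Aqp5. In EPZ5676 explants Cav1 (132 ± 12) was clear of Emp2 (59.0 ± 7.6), which was clear of Cav2 (33.6 ± 11.0). Cav2, Hopx (24.6 ± 4.0), Ager (23.2 ± 2.4), Pdpn (23.1 ± 5.4) and Akap5 (21.8 ± 3.3) were not separated from their neighbours. Rtkn2 (8.79 ± 2.53), Clic5 (2.81 ± 0.70) and Aqp5 followed, each clear of the next. Emp2 thus moved from the seventh place to the second, which it also held in controls (35.1 ± 5.6 TPM), though there its range overlapped that of Pdpn (20.4 ± 11.6).

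**Figure D3:**
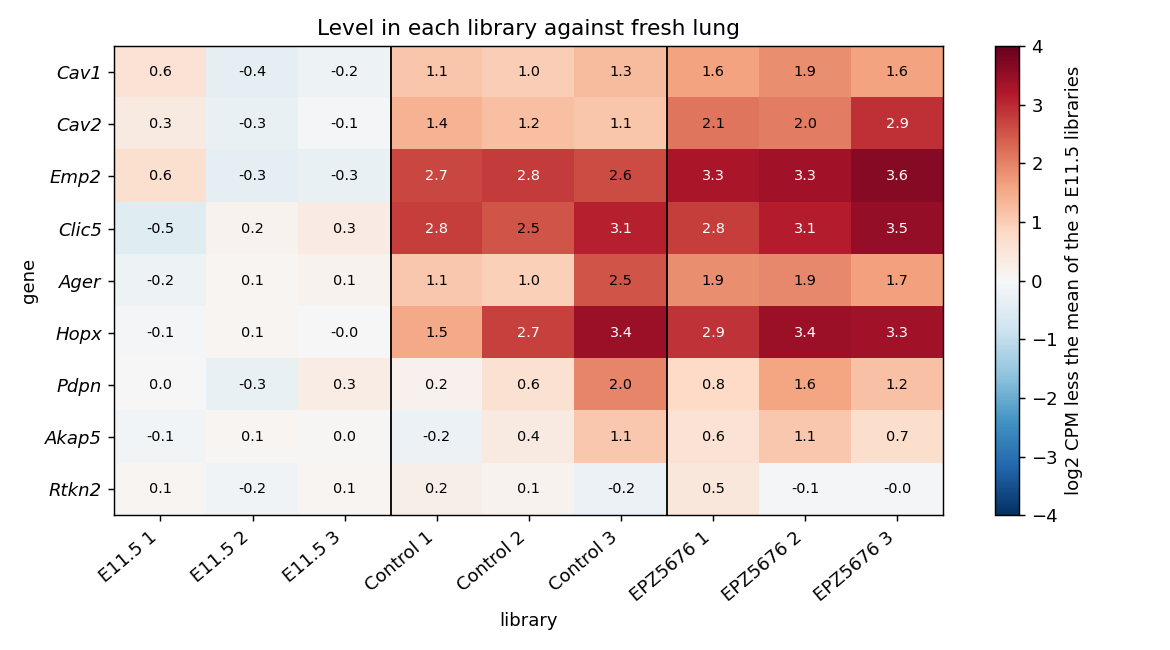
Log2 CPM of the 9 tested genes in each of the 9 libraries, less the mean of the 3 E11.5 libraries (colour and printed value). Control 3 stands above Control 1 and Control 2 in Ager, Hopx, Pdpn and Akap5, by less in Cav1 and Clic5, and not in Cav2, Emp2 or Rtkn2.

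The control libraries separated the genes by how far they spread. On the log2 CPM scale the SD over the 3 controls was 0.87 for Ager, 0.98 for Hopx, 0.93 for Pdpn and 0.66 for Akap5, against 0.14 for Cav1, 0.15 for Cav2 and 0.11 for Emp2. The median SD of all genes tested was 0.23 in that group. In TPM Control 3 was the highest control for Ager, Hopx, Pdpn and Akap5 and the lowest for Cav2, Emp2 and Rtkn2. It was also the highest control for Sftpc, the surfactant protein gene of AT2 cells and distal progenitors, at 1111 TPM against 142 TPM in Control 1 and 372 TPM in Control 2, and the lowest for the epithelial adhesion gene Epcam, at 133 TPM against 217 and 212 TPM. Control 1, which carried the liver and heart transcripts, was the lowest control for Hopx, Pdpn, Akap5 and Sftpc. With EPZ5676 the SD was 0.14 for Ager, 0.29 for Hopx, 0.41 for Pdpn and 0.27 for Akap5. The caveolin and Emp2 spread was instead widest in fresh lung for Cav1 (0.51) and Emp2 (0.55), where E11.5 1 was the highest library for Cav1, Cav2 and Emp2. E11.5 1 was also the only fresh library with Ddx3y at 0 TPM, and had the highest fresh sums of smooth muscle, heart muscle and liver markers. What else these libraries differ in, and whether it bears on the spread, was not tested.

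The Xist level divided the cultured libraries unevenly, with Control 1, Control 2 and EPZ5676 2 on the high side and Control 3, EPZ5676 1 and EPZ5676 3 on the low side. Ddx3y lay the opposite way, so by these transcripts the sides are those of sex. Cav1, Cav2 and Emp2 were higher with EPZ5676 on both sides. For Cav2 the means were 16.2 against 23.7 TPM (control against EPZ5676) on the high side and 10.9 against 38.5 TPM on the low side, and for Emp2 38.3 against 53.4 TPM and 28.6 against 61.7 TPM. For Cav1 they were 85.2 against 142 TPM and 80.6 against 127 TPM. Ager, Pdpn and Akap5 were higher with EPZ5676 on the high side and lower on the low side. Each side holds a single library of one of the groups, so these values carry no test.

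Of 20 further genes of AT1 cells, 19 could be tested, and 15 were called higher and none lower in control explants than in fresh lung (21.1% and 16.6% of all genes tested). Their median change on the log2 scale was 2.11, against 1.23 for the 9 tested genes above and 0.02 for all genes tested. The count includes 4 genes with under 10 counts in every fresh library, Scnn1b, Scnn1g, Gramd2 and S100a14, which were tested only through the cultured libraries and are given here by level. It also includes Col4a3 (8, 5 and 11 fresh counts) and Cryab (21, 11 and 9), which likewise needed the cultured libraries to pass the filter. Scnn1b and Scnn1g, subunits of the epithelial sodium channel that clears alveolar fluid, were at a mean of 0.20 and 0.33 TPM in fresh lung (4, 1 and 1 counts, and 5, 2 and 5 counts) and 3.39 and 4.66 TPM in controls. Gramd2, another AT1 marker, was at 0.61 TPM in fresh lung (7, 2 and 4 counts) and 4.30 TPM in controls. S100a14 was listed at 0 in all 3 fresh libraries, and at 2.05, 5.54 and 2.76 TPM in controls and 9.84, 22.2 and 26.7 TPM with EPZ5676. With EPZ5676, 16 of the 19 were called higher than in fresh lung and 2 lower, with a median of 2.64 (22.1% and 17.9% of all genes tested); the 2 lower genes, named here after their values were seen, were Ctnnbip1 (-0.48, edgeR adjusted p = 0.0113) and Prdx6 (-0.38, adjusted p = 0.0363). Ctnnbip1 lost its call without E11.5 2 (adjusted p = 0.0529), and Prdx6 lost it without any 1 of the fresh libraries, EPZ5676 1 or EPZ5676 3 (adjusted p = 0.071 to 0.112). None of the 19 passed in edgeR between EPZ5676 and control, where the median was 0.32. At an unadjusted p under 0.05, 4 were above and 1 below (4.14% and 2.80% of all genes tested). DESeq2 called 2 of the 20 higher, against 91 of 17387 genes in all. The smallest p belonged to Lmo7, an actin-linked junction protein, and S100a14, with log2 differences of 0.60 ± 0.14 and 2.13 ± 0.45 (edgeR adjusted p = 0.253 for each; DESeq2 adjusted p = 0.0472 and 0.0222). S100a14 held 11, 17 and 12 counts in controls and 40, 56 and 78 with EPZ5676, and passed the filter only with the EPZ5676 libraries. Its rise over control is therefore partly a condition of its having been tested.

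Of 10 genes for the coat and neck of caveolae, 9 could be tested, and 5 rose and 1 fell over culture without inhibitor (median 0.75), against 21.1% and 16.6% of all genes tested. Cavin1, the coat protein that caveolae need to form, rose from 27.4 ± 5.4 to 53.4 ± 13.3 TPM (log2 fold change 0.99 ± 0.14, edgeR adjusted p = 0.000389). Cavin2, which shapes the coat, rose from 7.58 ± 3.66 to 37.5 ± 10.9 TPM (2.39 ± 0.40, adjusted p = 0.00229), more in log2 terms than either caveolin, a difference that was not tested; relative to the pan-epithelial markers, its call was lost (0.96, limma adjusted p = 0.0868). Cavin3, the neck ATPase Ehd2 and the membrane-bending Pacsin3 also rose, by 0.90, 0.75 and 1.19 (adjusted p = 0.0105, 0.00051 and 0.00228), Cavin3 losing its call without E11.5 2 or E11.5 3 (adjusted p = 0.052 for each). Relative to the pan-epithelial markers Cavin2 kept its sign, while the changes of Cavin1, Cavin3, Ehd2 and Pacsin3 turned negative (values in the last section). Ror1, a receptor that has been tied to caveola formation, fell by 0.59 (adjusted p = 0.00359). Pacsin2, Ehd1 and the muscle gene Cavin4 did not pass, and Cav3, the muscle caveolin, was at 0 to 0.47 TPM and was not tested. In EPZ5676 against fresh lung the counts were again 5 higher and 1 lower (median 0.99), against 22.1% and 17.9% of all genes tested. Between EPZ5676 and control no member passed in edgeR or DESeq2, 1 was above and 1 below at an unadjusted p under 0.05 (4.14% and 2.80% of all genes tested), and the median was 0.06, with Cavin1 at 0.13 ± 0.14 and Cavin2 at 0.33 ± 0.36 (edgeR adjusted p = 0.916 and 0.917).

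**Figure D4:**
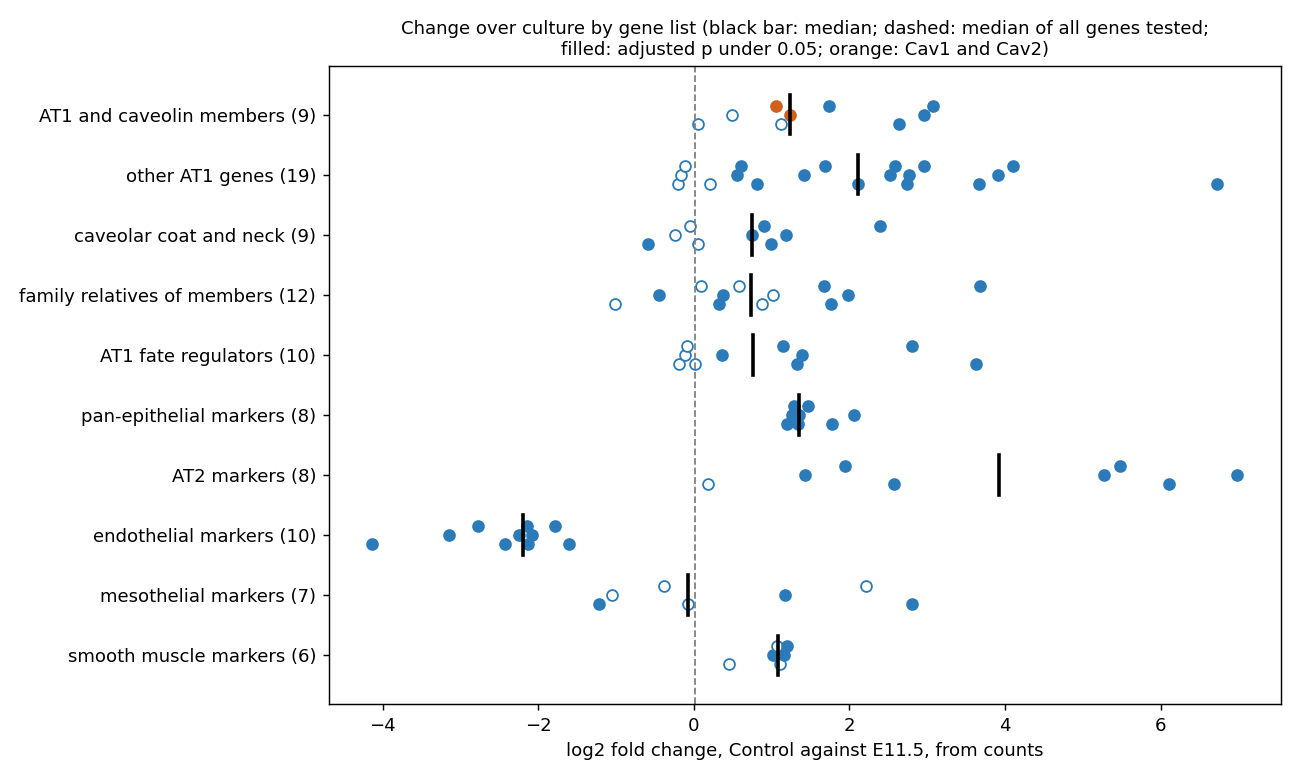
Log2 fold change of each tested gene, Control against E11.5 (horizontal axis), by gene list with the number tested in brackets; black bars are list medians, the dashed line is the median of all genes tested (0.02) and filled points have an adjusted p under 0.05. All 10 endothelial markers lie below 0 and all 8 pan-epithelial markers above 0; the rightmost point of the other AT1 genes is S100a14, at 0 in every fresh library, whose position depends on the prior count.

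Among 12 relatives of the 10 genes, 6 were called higher and 1 lower over culture without inhibitor, with a median of 0.73, against 21.1% and 16.6% of all genes tested. The 6 include Clic3, a relative of Clic5, which was tested only through the cultured libraries; it was at a mean of 0.51 TPM in fresh lung (1, 2 and 1 counts) and 7.02 TPM in controls. Aqp1, the water channel of lung capillaries, rose by 1.98 (adjusted p = 0.00285) while the summed endothelial markers fell. Emp3 and Pmp22, of the family of Emp2, rose by 1.76 and 1.68 (adjusted p = 0.000476 and 7.06e-05). Relative to the pan-epithelial markers the calls of Aqp1, Emp3 and Pmp22 were lost (limma adjusted p = 0.222, 0.282 and 0.438). Between EPZ5676 and control none of the 12 passed in edgeR or DESeq2, and 3 were above at an unadjusted p under 0.05, against 4.14% of all genes tested (median 0.26). Aqp3 and Clic3 had the smallest p, with log2 differences of 1.96 ± 0.45 and 1.26 ± 0.31 (edgeR adjusted p = 0.26 and 0.329). Aqp3 held 10, 8 and 4 counts in controls and 21, 24 and 36.7 with EPZ5676, and passed the filter only with the EPZ5676 libraries. The rise of Aqp3 over control is therefore partly a condition of its having been tested. Clic3 was at 6.13, 7.85 and 7.08 TPM in controls and 16.4, 24.2 and 16.0 TPM with EPZ5676, with no overlap.

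Of 10 regulators of AT1 fate, 6 were called higher and none lower in controls than in fresh lung (median 0.75), against 21.1% and 16.6% of all genes tested. Klf5 and Cebpa, factors of distal epithelial maturation, rose by 3.62 and 2.81 (edgeR adjusted p = 6.12e-05 and 0.000146), and the lung factor Nkx2-1 by 1.15 (adjusted p = 3.84e-05). Foxa1 and Foxa2 rose by 1.40 and 1.32, and Wwtr1, which codes for TAZ, by 0.36 (adjusted p = 0.0328). With its sign kept, the Wwtr1 call was lost in 6 of 20 alternatives, among them those without E11.5 2, E11.5 3 or Control 3 (adjusted p = 0.0974, 0.132 and 0.0871). Gata6, Yap1, Tead1 and Hdac3 did not pass. Of 6 tested target genes of YAP and TAZ, whose activity is tied to AT1 spreading, 2 rose and 1 fell (median 0.17), near the 21.1% and 16.6% of all genes tested: Ccn2 by 1.21 and Ccn1 by 0.66 (adjusted p = 0.00713 and 0.0172), and Lats2 fell by 0.48 (adjusted p = 0.0161). Of these calls Ccn1 was lost, with its sign kept, in 3 of 20 alternatives, among them that without E11.5 3 (adjusted p = 0.0689). Lats2 was lost without E11.5 1, Control 1 or Control 2 (adjusted p = 0.053, 0.051 and 0.0553). Between EPZ5676 and control no member of either list passed in edgeR or DESeq2, or had an unadjusted p under 0.05.

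Markers of several cell types moved with the groups. The 8 pan-epithelial markers were all called higher in controls (median 1.35), against 21.1% of all genes tested. Their summed level was 276 to 286 TPM in fresh lung and 509 to 889 TPM in controls. Of 8 tested AT2 markers 7 were also called higher (median 3.92), Sftpc by 5.48. That count and median include Lamp3 and Slc34a2, which had under 10 counts in every fresh library and were tested only through the cultured libraries. Between EPZ5676 and control no marker of either list passed in edgeR or DESeq2. Whatever the p, 7 of 8 pan-epithelial and 7 of 8 tested AT2 markers were above control, against 49.2% of all genes tested. Their medians were 0.27 and 0.63, against 0.36 for the 9 tested genes. At an unadjusted p under 0.05, 2 and 4 were above and none below (4.14% and 2.80% of all genes tested). Set against the mean of the pan-epithelial markers in each library (limma-trend on log2 CPM less that mean), Hopx, Clic5 and Emp2 were still higher in controls than in fresh lung, by 1.14, 1.36 and 1.26 (adjusted p = 0.0397, 0.00231 and 0.000131). Ager was at 0.09 (adjusted p = 0.875), Cav1 at -0.32 (0.303) and Cav2 at -0.20 (0.442), and Akap5 and Rtkn2 were lower, by 1.03 and 1.40 (adjusted p = 0.0439 and 3.63e-05). With EPZ5676 on this scale Hopx, Clic5, Emp2 and Cav2 were higher than in fresh lung, by 1.49, 1.42, 1.69 and 0.65 (adjusted p = 0.00945, 0.00148, 3.17e-06 and 0.0179), and Rtkn2 was lower, by 1.60 (adjusted p = 4.89e-06). For Hopx and Clic5 both rises are partly a condition of their having been tested, since they passed the filter through the cultured libraries. Between EPZ5676 and control on this scale none of the 9 passed. Cav2 was at -2.00, -2.21 and -1.72 in controls and -1.41, -1.15 and -0.80 with EPZ5676, relative to that mean, without overlap. Emp2, at -0.50, -0.36 and 0.00 in controls and -0.06, 0.38 and 0.12 with EPZ5676, overlapped on this scale. Since several of these genes are also made outside the epithelium, the scale is a ratio to epithelial transcripts and not a level per epithelial cell.

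The 10 endothelial markers were all called lower in controls than in fresh lung (median -2.20), against 16.6% of all genes tested. Their sum was 280 to 307 TPM in fresh lung, 24.9, 48.4 and 114 TPM in controls and 41.3, 49.8 and 87.3 TPM with EPZ5676. No endothelial marker was at 0 in any library. The sums of controls and EPZ5676 libraries overlapped, and among the controls Control 1, with the highest sum, also had the highest Cav1 and Cav2 in TPM. In log2 CPM this order held for Cav2 but not for Cav1. There Control 3, with the lowest sum, had the highest Cav1 of the controls (7.07 against 6.94 in Control 1 and 6.80 in Control 2). The 7 mesothelial markers summed to 52.5 to 66.8 TPM in fresh lung, 75.9 to 114 TPM in controls and 143 to 213 TPM with EPZ5676, none at 0 in any library. The step from fresh lung to controls in that sum is Krt19, a keratin also made by other epithelia, which rose from a mean of 9.09 to 58.6 TPM. Without Krt19 the other 6 markers summed to 46.0 to 55.9 TPM in fresh lung, 28.6 to 34.4 TPM in controls and 48.0 to 90.9 TPM with EPZ5676. In control against fresh lung 2 of the 7 were called higher and 1 lower, near the 21.1% and 16.6% of all genes tested. Whatever the p, 4 of 7 were below fresh lung (median -0.08). Wt1, the mesothelial transcription factor, fell by 1.22 (edgeR adjusted p = 0.00531). All 7 were above control with EPZ5676 (median 0.95), against 49.2% of all genes tested. None passed in edgeR, and 5 were above at an unadjusted p under 0.05 (4.14% of all genes tested). The 5 include Msln, at 15.2, 16.0 and 3 counts in controls and 14.9, 28.3 and 80.0 with EPZ5676. It passed the filter only with the EPZ5676 libraries, so its rise is partly a condition of its having been tested. DESeq2 called 2 of the 7 higher, against 91 of 17387 genes in all. Krt19 and Muc16, with the smallest p, were at 0.95 ± 0.23 and 1.31 ± 0.34 (adjusted p = 0.306 and 0.369; DESeq2 adjusted p = 0.0208 and 0.0445). The 6 smooth muscle markers summed to 405 to 812 TPM in controls and 385 to 684 TPM with EPZ5676. The part of mesothelial, endothelial and muscle cells in the caveolin and Emp2 differences was not tested.

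**Figure D5:**
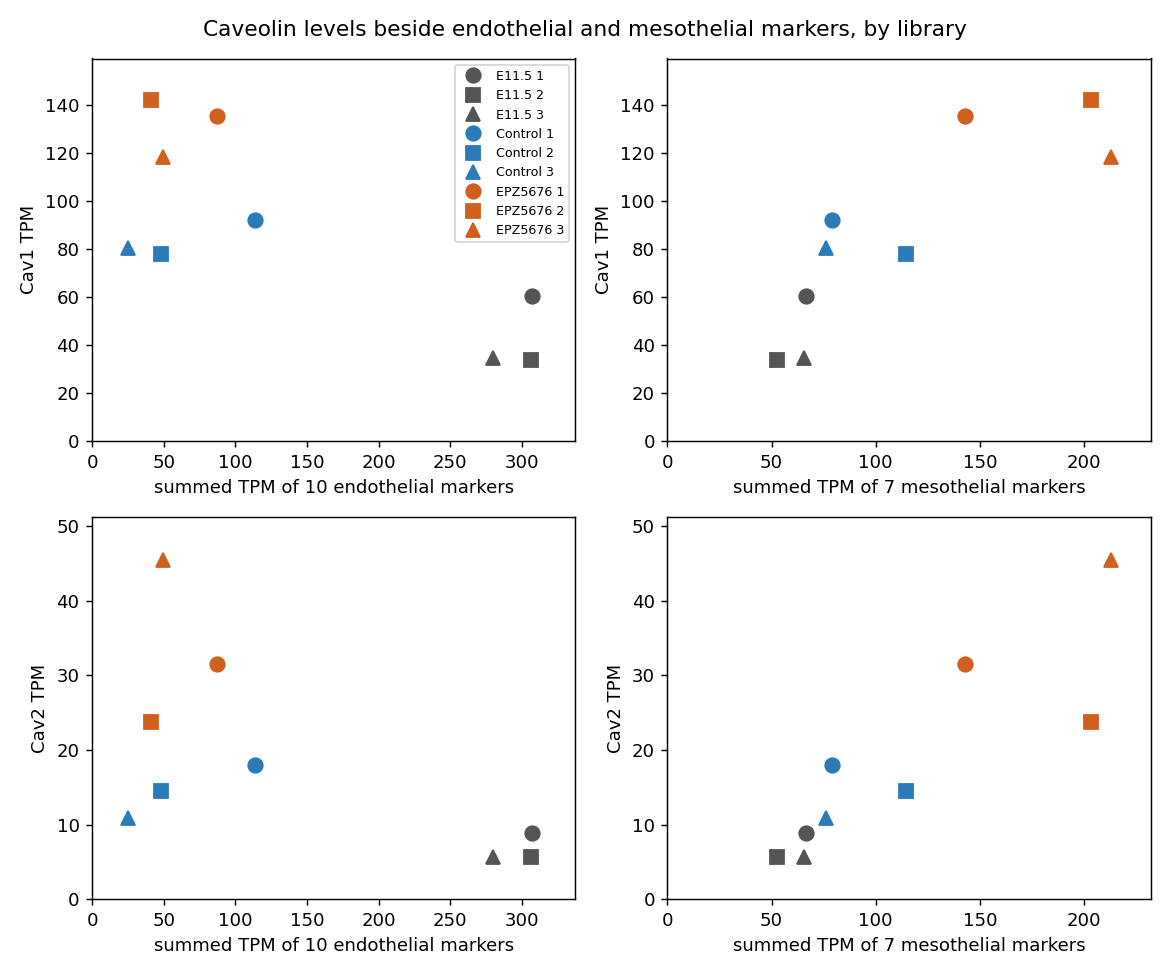
TPM of Cav1 (top) and Cav2 (bottom) in each library against the summed TPM of 10 endothelial markers (left) and 7 mesothelial markers (right). The fresh libraries combine the highest endothelial sums (280 to 307 TPM) with the lowest caveolin levels. The EPZ5676 libraries combine the highest mesothelial sums (143 to 213 TPM) with the highest caveolin levels. The mesothelial sum includes Krt19, without which controls lie below fresh lung. Without it EPZ5676 1 and EPZ5676 3 (48.0 and 50.6 TPM) also lie within the fresh range (46.0 to 55.9 TPM), and only EPZ5676 2 (90.9 TPM) lies above it.

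The genes whose pattern was most like that of the tested members were ranked by Pearson's r between their log2 CPM and the mean z-score of the 9 members over the 9 libraries, which share groups and culture. The first 5 were Cygb (r = 0.991), Slc1a1 (0.989), Tst (0.988), Mgst1 (0.986) and Mtm1 (0.986). They rose through the 3 groups in mean level, Mgst1 from 35.4 to 146 and 203 TPM, Tst from 8.39 to 32.3 and 47.4 TPM and Cygb from 1.93 to 5.91 and 9.01 TPM. The differences between the 3 groups enter every r, so these values are a description.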

How the data were processed

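RNA-seq was analysed for 9 libraries of mouse lung. TRIzol RNA and a Vazyme VAHTS Universal V8 kit were used, per the labels' protocols. RSEM, Bowtie2 and mm10 are named in the submitters' processing notes. The authors deposited expected counts per gene, which divide reads among genes that share sequence, and TPM. Whether counting used strand was not stated in the sources, so Hopx and Rtkn2 cannot be told apart from the antisense genes Hopxos and Gm16212 where exons overlap (TPM at most 0.15).

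Expected counts were rounded, filtered (filterByExpr, minimum count 10), scaled by TMM and fitted by group over all 9 libraries, with 6 residual degrees of freedom (edgeR 4.0.16, robust quasi-likelihood F test, two-sided, R 4.3.3). P-values were adjusted by Benjamini-Hochberg over 15158 genes, with a threshold of 0.05. Log2 CPM used a prior count of 2. The scripts were tested on simulated data. Intervals and floors cover counting error or the spread between libraries only. No pair of replicates agreed within sampling noise (chi-square of 2.69 to 31.1 per degree of freedom). Replicate numbers were not used to pair libraries. Alternatives used limma 3.58.1 and DESeq2 1.42.0.

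The members and lists were chosen with earlier results of these data known. All 10 members are named. From each other list, up to 4 called genes of largest change were named, or the 2 of smallest p where none passed, and any gene of the caveolar coat, pan-epithelial and AT1 fate lists may be. Col4a3, Cryab and Msln were named for their low counts.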

Additional observations from a re-analysis of the deposited data

How the results depend on the processing

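Across 20 alternatives the 6 calls over culture in control explants held for Hopx, Clic5 and Emp2 in all 20. For Hopx and Clic5 this carries the limit given above, since both passed the filter through the cultured libraries. The calls of Ager, Cav1 and Cav2 held in 19, the exception being the scale relative to pan-epithelial markers. That scale gave 3 members higher and 2 lower for control against fresh lung, and 1 lower for EPZ5676 against fresh lung. Since the epithelial markers themselves rose, it lowers every value over culture by construction. DESeq2 called 1 member higher in EPZ5676 against control, where edgeR called 0, and a difference of the size of Emp2 or Cav1 was not resolved at this depth and spread. Libraries of 3 per group limit each comparison.

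On the scale relative to pan-epithelial markers these log2 values changed sign. For control against fresh lung they were -0.51 for Pdpn, -1.40 for Rtkn2, -1.03 for Akap5, -0.32 for Cav1, -0.20 for Cav2, -0.44 for Cavin1, -0.51 for Cavin3, -0.69 for Ehd2, -0.29 for Pacsin3, -0.28 for Nkx2-1, -0.10 for Foxa1, -0.21 for Foxa2, -1.08 for Wwtr1, -0.18 for Epcam, -0.22 for Ccn2, -0.80 for Ccn1 and -0.23 for Muc16. For EPZ5676 against fresh lung they were -0.54 for Pdpn, -1.60 for Rtkn2, -0.93 for Akap5 and -0.013 for Cav1. For EPZ5676 against control they were -0.0284 for Pdpn, -0.21 for Rtkn2, -0.15 for Cavin1, -0.0391 for Ehd2, -0.0641 for Epcam and -0.0919 for Nkx2-1. The uncalled change of Rtkn2 in controls was -0.0451 with limma-trend on log2(TPM + 1) and -0.0542 on log2(TPM + 0.1).

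With single libraries left out, EPZ5676 against control ranged from -0.14 to 0.81 for Ager, -0.23 to 0.82 for Pdpn, -0.12 to 0.19 for Rtkn2, 0.0382 to 0.72 for Akap5, 0.0935 to 1.02 for Hopx, 0.15 to 0.54 for Clic5, 0.50 to 0.66 for Cav1, 0.86 to 1.36 for Cav2 and 0.61 to 0.81 for Emp2. Rtkn2 ranged from -0.0483 to 0.18 for control and from -0.0634 to 0.24 for EPZ5676 against fresh lung. Of the same-numbered EPZ5676 and control libraries, EPZ5676 1 and Control 1 deviated together (correlation of 0.46). EPZ5676 2 with Control 2 and EPZ5676 3 with Control 3 did not (0.08 and -0.05), and unlike numbers reached 0.265. The sources do not say what equal numbers share, so the replicate block rests on a number alone. With that block 0 members passed for EPZ5676 against control, 6 for control and 8 for EPZ5676 against fresh lung. The last count added Pdpn (1.23, edgeR adjusted p = 0.0352) and Akap5 (0.80, edgeR adjusted p = 0.0363). The newer quasi-likelihood method of edgeR was chosen after seeing the data.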
